A study of Ovis aries with 6 samples.

Results

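This account covers the 150 most abundant unannotated genes of the Hu sheep testis, which are the transcribed regions whose deposited identifiers begin with Novel0. Hu sheep are a Chinese breed of domestic sheep. The table of read counts holds 29307 rows, of which 8386 are unannotated and 20921 carry Ensembl identifiers. The 150 genes had the highest mean CPM (each count divided by its column total and multiplied by 1000000) over the 6 libraries among 8384 unannotated rows. The ranking left out 2 rows, Novel03658 and Novel01126, whose mean levels of 56.8 and 7.11 CPM were below those of all 150. The members are 1.79% of the unannotated rows, and all 150 passed the filter on low counts.

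RNA was sequenced from 3 testis samples of sheep at a maintenance energy level (titles A13, A15 and A16, called maintenance replicates 1, 2 and 3). Another 3 came from sheep at a 55% energy level (titles D9, D10 and D11, called restricted replicates 1, 2 and 3). All 6 share breed and tissue, and the labels give no age, no time of sampling and no statement that each sample is a separate animal, so p-values measure the spread between these samples. A compensation phase appears in the title of the study but in none of the sample labels used here. Libraries held between 13876765 and 20050430 counted reads, with the 3 deepest in maintenance. Across the diets, maintenance replicates 2 and 3 and restricted replicate 1 stood apart from the other 3 libraries: one of these sets of 3 held the highest levels in 19.9% and the other in 33.2% of all genes tested. None of the 29307 identifiers (0) occurred in the sheep RefSeq table (assembly ARS-UI_Ramb_v3.0), so no gene name, position or sequence is given and the tissue could not be checked against markers.

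As background, the testis transcribes a larger part of the genome than most organs, mainly in meiotic and early haploid germ cells. Many of its transcripts are long non-coding RNAs, unannotated ends of known genes or genes missing from an assembly's annotation. An identifier of this kind thus marks a place where reads were counted and carries no statement on coding potential or function. In whole tissue, fewer cells of a type and less RNA per cell cannot be told apart. The strand setting of the counting is not given in the sources used here, so reads from a gene and from an overlapping or antisense neighbour cannot be separated either.

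The members were chosen by their mean level, so the levels that follow are a description. The most abundant, Novel04219, ranked 60 among all 29307 rows, and the last, Novel05593, ranked 4044. Of the 150 members, 3 had a mean of at least 500 CPM, 10 of at least 300 CPM, 24 of at least 200 CPM and 83 of at least 100 CPM. The first 10 held 21.2% of the summed mean level of the members, and the first 50 held 57.7%. Novel04219 itself held 4.09%, so no single gene made up most of the level. At the end of the list the steps were very small. Novel01143 and Novel05593 stood just inside with 61.5 and 61.4 CPM, and Novel04584 and Novel04880 just outside with 61.4 and 61.0 CPM.

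Together the members took 1.87, 2.39 and 2.23% of all counted reads in maintenance replicates 1, 2 and 3. In restricted replicates 1, 2 and 3 they took 2.35, 2.09 and 2.29%. The means were 2.17 ± 0.264% and 2.24 ± 0.135% (SD, n = 3 each). The diets overlapped, and the lowest value belonged to maintenance replicate 1. The restricted mean was 0.0756 percentage points above the maintenance mean, a difference that was -0.0701 when maintenance replicate 1 was dropped. For the first 150 unannotated genes by mean FPKM it was -0.0891 percentage points. Counting error was small beside this spread, since the 95% Wilson interval of each share reached at most 0.00786 percentage points to either side. Such intervals cover counting error only. Within the unannotated reads the members' part was steadier, between 33.8 and 34.5% in maintenance libraries and 33.9, 33.9 and 36.7% in restricted replicates 1, 2 and 3. Restricted replicate 3 therefore had the highest part.

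Novel04219, 7338 bases long, had 694, 973 and 896 CPM in the maintenance libraries and 1123, 817 and 908 CPM in the restricted libraries, each in the order of replicates 1 to 3. It was the most abundant member in all 6 libraries. Novel00138 (6001 bases) had 506, 801 and 658 CPM against 610.4, 461 and 328 CPM. Its lowest library was restricted replicate 3, and the diets overlapped. Novel02179 (2237 bases) had 477, 548 and 590.0 CPM against 536, 524 and 592 CPM, a nearly even level in all libraries.

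Novel07221, the fourth by level, is implied to be 39902 bases long. Its levels were 278, 459.9 and 354 CPM in maintenance and 481, 352 and 603 CPM at 55% energy, highest in restricted replicate 3. Novel02847 (10545 bases) had 369, 398 and 395 CPM against 386, 493 and 364 CPM. Novel01006 (3629 bases) had 323, 548 and 510.2 CPM against 454, 328 and 242 CPM. In this gene, as in Novel00138, the libraries were ordered with maintenance replicate 2 highest and restricted replicate 3 lowest. The diets overlapped in each of the 6 genes.

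**Figure D1:**
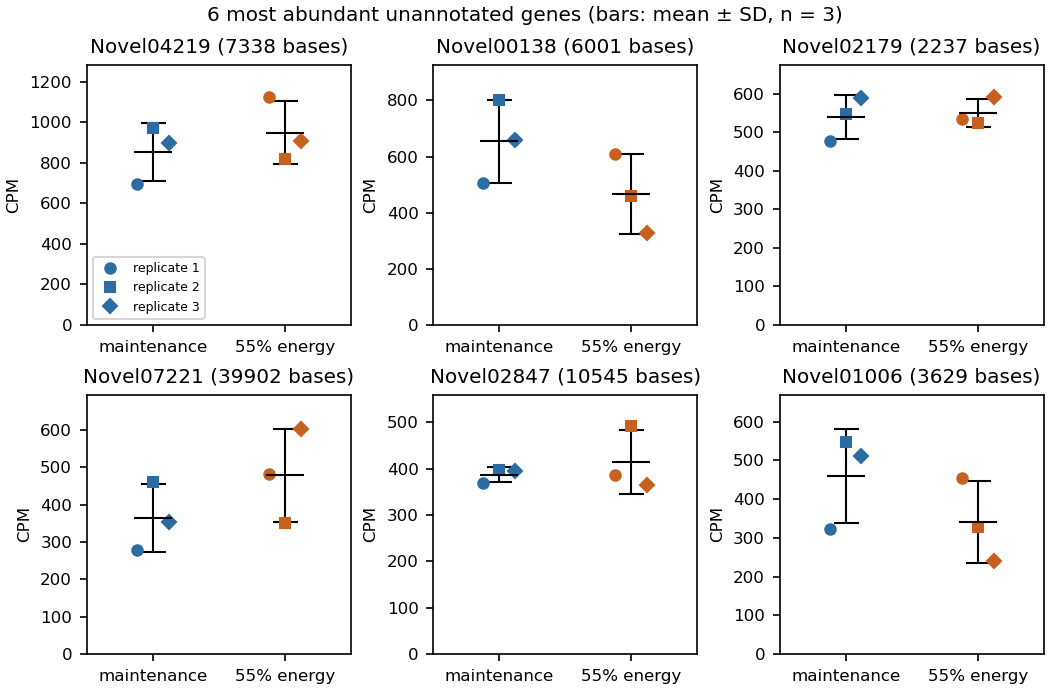
CPM of the 6 most abundant unannotated genes in each library (points, y axis from 0), by diet (x axis), with the mean and SD of 3 libraries. In every panel the points of both diets overlap, as for Novel04219 with 694 to 973 CPM in maintenance and 817 to 1123 CPM at 55% energy.

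Gene lengths were obtained from the deposited FPKM table (fragment counts scaled by gene length and library total). Each count divided by its FPKM value and column total gave a whole number of bases, the same in every library. The members were long and of very unequal length. Their median was 3129.5 bases, with quartiles of 1407.5 and 7248.8 bases and a range from 315 to 47509 bases. The other 8017 unannotated genes with a count had a median of 1484 bases, and the Ensembl genes with a count a median of 1426 bases. Of the members, 28 (18.7%) were over 10000 bases, against 122 (1.52%) of the other unannotated genes and 126 (0.637%) of the Ensembl genes. Long genes collect more reads at equal abundance, so a ranking by CPM favours them. Among Ensembl genes of the members' range of mean CPM, 77 of 3835 (2.01%) were over 10000 bases and the median was 2181 bases.

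A length that is a multiple of 3 is a property of gene models that hold the coding part alone. It was found for 53 of the 150 members (35.3%), for 32.7% of the other unannotated genes and for 65.0% of the Ensembl genes of the same CPM range. In this feature the members were nearer to the other unannotated genes than to the annotated ones. These shares were not tested.

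**Figure D2:**
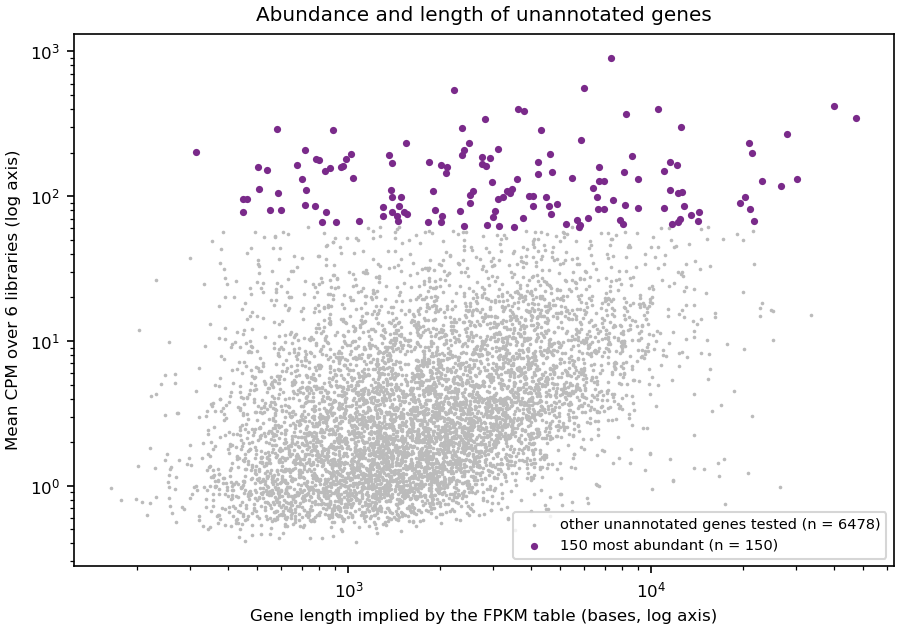
Mean CPM over 6 libraries (y, log axis) against gene length in bases (x, log axis) for the 150 members and the other 6478 unannotated genes that passed the filter. The members lie above 61.4 CPM by choice and span 315 to 47509 bases.

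Per length, the order of the members changed. Mean FPKM ranged from 3.105 to 642 with a median of 37.2, and only 75 of the 150 were also among the first 150 by mean FPKM. Highest per length was the shortest member, Novel08087 (315 bases), with a mean of 642 FPKM. Its levels were 108, 365 and 191 CPM in maintenance and 252, 133 and 165 CPM in restricted libraries, so it varied 3.39-fold between maintenance replicates 1 and 2. Novel07084 (582 bases, 504 FPKM) had 212, 354 and 321 CPM against 358, 229.7 and 284 CPM. Novel05188 (890 bases, 320.4 FPKM) had 257, 387 and 345 CPM against 359, 214 and 149.1 CPM. The 2 longest members, Novel00739 and Novel07221, had only 7.27 and 10.6 FPKM although they ranked 9 and 4 by CPM.

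Variation between the 6 libraries was measured as the coefficient of variation of CPM (CV, the SD divided by the mean). The members' median CV was 0.281, with quartiles of 0.222 and 0.353. Counting alone would give a median CV of 0.0241 and at most 0.0324, so the differences between libraries were much larger than counting error in nearly every member. All 22323 genes tested had a median CV of 0.329, and the other unannotated genes, at a much lower median of 2.96 CPM, had 0.400. The Ensembl genes of the same CPM range had 0.207. The biological coefficient of variation fitted by edgeR gave the same order, with medians of 0.303 for members, 0.387 for all genes tested and 0.260 for those Ensembl genes. Within diets the median CV of the members was 0.281 in maintenance and 0.258 in restricted testes. It was the larger in maintenance for 91 of 150 members (60.7%), beside 61.3% of all genes tested.

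The steadiest members differed by about 1.2-fold between their highest and lowest library. Novel07945 (551 bases, CV 0.0744) had 75.5, 72.4 and 79.4 CPM in maintenance and 88.0, 84.5 and 84.6 CPM in restricted libraries. Its restricted values all lay above its maintenance values by CPM, but the fitted log2 change after scaling was 0.05, with a standard error of 0.17. Novel01914 (2116 bases, CV 0.0764) had 141, 158 and 162 CPM against 176, 154 and 169 CPM. Novel02934 (1841 bases, CV 0.0790) had 188, 176 and 157 CPM against 152.3, 178 and 176 CPM. The diets overlapped in both.

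At the other end, 13 members differed more than 4-fold between their highest and lowest library. Of the 22323 genes tested, 5242 had reads in every library and a range of more than 4-fold. Tested genes without reads in some library were not counted among these 5242. On the same count, 191 of the 3835 Ensembl genes in the members' CPM range differed this much. Novel07289 (2099 bases, CV 0.862) had 355, 17.1 and 73.0 CPM in maintenance and 67.5, 221 and 134 CPM in restricted libraries, a 20.8-fold range. Its highest and lowest libraries were maintenance replicates 1 and 2, on the same diet. Novel08273 (911 bases, CV 0.734) had 147, 13.2 and 35.3 CPM against 38.9, 95.3 and 68.5 CPM, again with these libraries at the ends. The second shortest member, Novel01117 (448 bases), had 162, 28.6 and 46.5 CPM against 47.1, 98.3 and 82.2 CPM. Of the 13 widest members, 6 were highest in maintenance replicate 1 and lowest in maintenance replicate 2.

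Novel04860 (1525 bases, CV 0.760) had a different pattern. It had 36.5, 143 and 154 CPM in maintenance and 6.47, 52.1 and 74.8 CPM in restricted libraries, a 23.8-fold range. Its lowest library was restricted replicate 1, where 99 reads gave a 95% Wilson interval of 5.31 to 7.87 CPM. Maintenance replicate 1, at 36.5 CPM, lay below restricted replicates 2 and 3, so the diets overlapped.

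The order of the libraries repeated itself across members. In 51 of 150 members (34.0%) the 3 highest libraries were maintenance replicates 2 and 3 and restricted replicate 1, beside 19.9% of all genes tested. The reverse set, maintenance replicate 1 with restricted replicates 2 and 3, was highest in 31 members (20.7%), beside 33.2% of all genes tested. Maintenance replicate 1 was the lowest library of 64 members (42.7%), and restricted replicate 3 was the highest of 38 and the lowest of another 38. These counts depended on the scaling: with TMM (trimmed mean of M values, a correction for composition) restricted replicate 3 was highest in 18 and lowest in 46 members, maintenance replicate 2 was highest in 63 instead of 41, and maintenance replicate 1 was lowest in 58. For all genes tested, maintenance replicate 1 was lowest in 24.6%. By CPM, restricted replicate 3 was highest in 25.3% and lowest in 25.3% of members, beside 20.8 and 14.5% of all genes tested. Ensembl genes of the same CPM range gave 33.6, 27.5 and 36.6% for the first set, the reverse set and maintenance replicate 1 as lowest. In those Ensembl genes restricted replicate 3 was highest in 24.8% and lowest in 17.4%. Members share libraries and scaling, so these counts describe 6 libraries and were not tested.

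Length went with the high position of restricted replicate 3. Among the 28 members over 10000 bases it was the highest library in 17 (60.7%), and among the 122 shorter members in 21 (17.2%). After TMM scaling it was the highest in 13 of the 28 (46.4%). Other length limits gave 25 of 53 members over 5000 bases (47.2%) and 9 of 11 over 20000 bases (81.8%). The long members together took 0.320, 0.425 and 0.363% of all counted reads in maintenance and 0.422, 0.415 and 0.621% in restricted replicates 1, 2 and 3. Their part of the members' reads was 27.1% in restricted replicate 3 and between 16.3 and 19.9% in the other 5 libraries. Relative to the mean of the other 5 libraries, restricted replicate 3 had a median ratio of 1.61 over the 28 long members, with a range from 0.609 to 2.92. Maintenance replicate 1 was the lowest library in 17 of the 28 long members (60.7%) and in 47 of the 122 shorter members (38.5%). That library was lowest in 42.5% of the other unannotated genes over 10000 bases and in 29.6% of the Ensembl genes of that length. The length limit of 10000 bases was chosen after the values were seen.

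Novel00739, the longest member with 47509 bases, had 176, 282 and 248 CPM in maintenance and 323, 279 and 764 CPM in restricted libraries. Restricted replicate 3 was thus 2.36-fold above the next highest library. Novel04346 (28052 bases) had 175, 269 and 236 CPM against 277, 201 and 446 CPM. Novel04347 (26722 bases) had 81.6, 129 and 85.5 CPM against 101, 84.9 and 225 CPM. Both were highest in restricted replicate 3 and, like Novel00739 and Novel07221, lowest in maintenance replicate 1. Further long members, named after their values were seen, were Novel05301 (21415 bases), with 335 CPM in that library and at most 212 CPM in the others, and Novel07280 (23117 bases), with 254 and at most 155 CPM. Not every long member shared the pattern. Novel07981 (30235 bases) was highest in restricted replicate 1 with 234 CPM and had 85.8 CPM in restricted replicate 3, and Novel01936 (21214 bases) was highest in maintenance replicate 2 with 96.0 CPM.

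Across the members, the rank correlation (Spearman's rho over 150 genes, which are not independent replicates) of length with the log2 level of a library against the other 5 was 0.48 in restricted replicate 3. It was 0.13 in restricted replicate 2, -0.22 in restricted replicate 1 and -0.23, -0.19 and -0.37 in maintenance replicates 1, 2 and 3. Within the 122 members up to 10000 bases it was 0.27 in restricted replicate 3. The same values for restricted replicate 3 were 0.21 over the other unannotated genes, 0.23 over the Ensembl genes of the members' CPM range and 0.047 over all Ensembl genes tested. Restricted replicate 3 was the highest library of 24.5% of the 106 other unannotated genes over 10000 bases and of 26.4% of the 125 Ensembl genes of that length. It was also the shallowest library, with 13876765 reads. The part of depth or of RNA quality in this pattern was not tested.

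**Figure D3:**
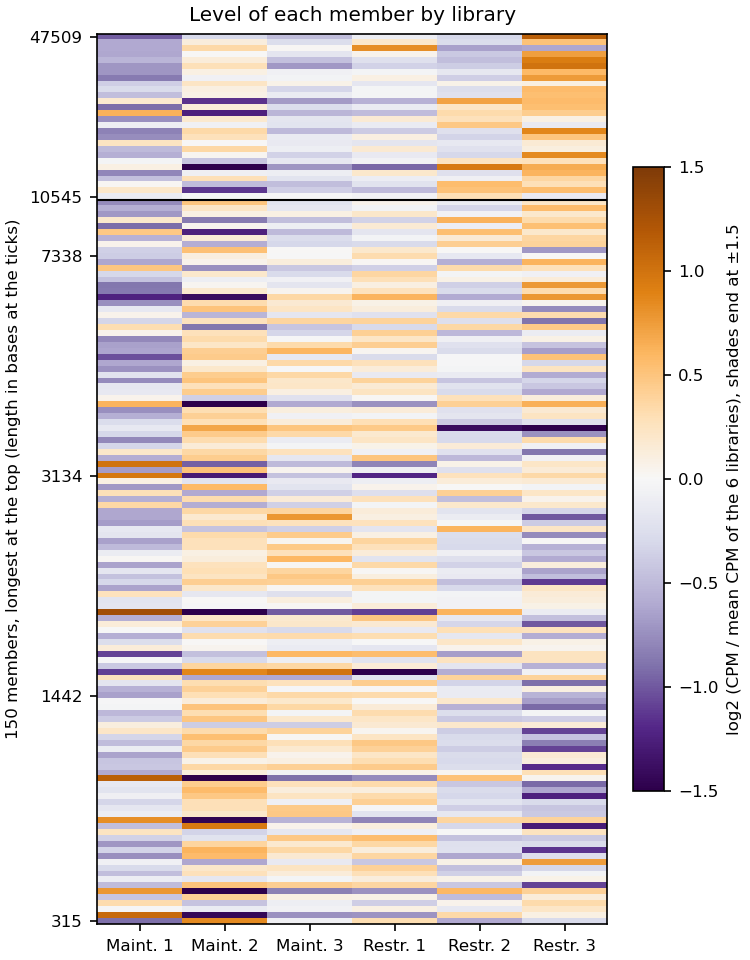
Level of each of the 150 members in each library as log2 of CPM over its mean CPM (colour, orange above and purple below the mean), with members ordered by length from 47509 bases at the top to 315 bases at the bottom. The line parts the 28 members over 10000 bases, 17 of which were highest in restricted replicate 3.

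**Figure D4:**
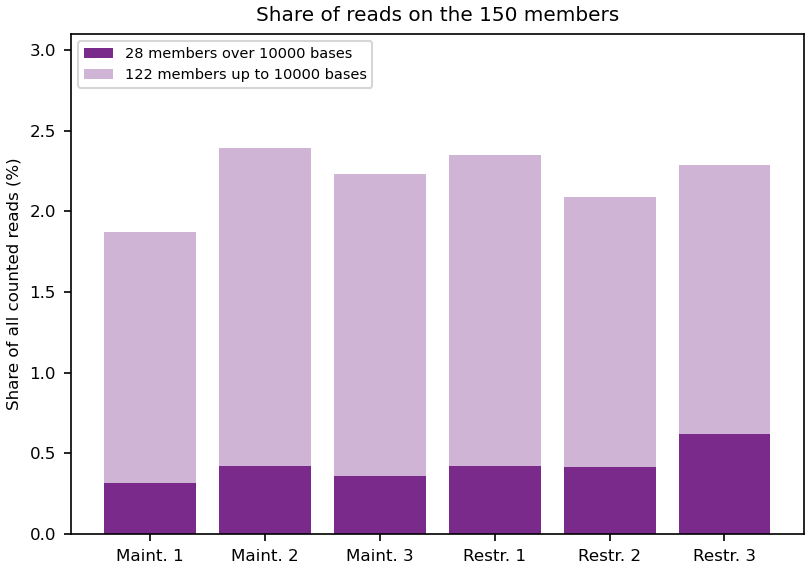
Share of all counted reads (%, y axis from 0) taken by the 28 members over 10000 bases (dark) and the 122 shorter members (light) in each library. The dark part is 0.621% in restricted replicate 3 and between 0.320 and 0.425% in the other libraries, while the whole bars lie between 1.87 and 2.39%.

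Some members carry consecutive identifier numbers, which formed 7 pairs. How the numbers were assigned is not given in the sources used here. The 4 most abundant pairs are described first. In Novel04346 and Novel04347 the ratio of the first to the second ranged from 1.98 to 2.75 over the 6 libraries. The SD of its log2 was 0.206, and 6.23% of all pairs of members had a smaller one. Novel03059 (3946 bases) had 67.7, 134 and 96.5 CPM in maintenance and 98.1, 88.6 and 118 CPM in restricted libraries, where Novel03060 (6697 bases) had 116, 148 and 151 CPM and 193, 167 and 174 CPM. Their ratio ranged from 0.508 to 0.903. The SD of its log2 was 0.301, and 17.1% of member pairs had a smaller one.

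Novel07429 (12652 bases) had 61.0, 136 and 76.3 CPM against 81.8, 91.4 and 197 CPM, and Novel07430 (11551 bases) 64.1, 105 and 104 CPM against 127, 94.4 and 169.8 CPM. Both were highest in restricted replicate 3, with a ratio between 0.644 and 1.30. Novel02449 (2369 bases) had 123, 222 and 194 CPM against 230.2, 156 and 224 CPM, and Novel02450 (2409 bases) 154, 248 and 291 CPM against 226, 191 and 151 CPM. They differed in their highest library, and their ratio ranged from 0.667 to 1.49. Among the other 3 pairs, named after their values were seen, Novel01739 and Novel01740 held the most even ratio, between 0.627 and 0.741. The SD of its log2 was 0.103, with 0.465% of member pairs below it. The ratio of Novel06251 to Novel06252 ranged from 0.880 to 1.40, and that of Novel01936 to Novel01937 from 0.529 to 1.48. For these pairs 10.1 and 55.6% of member pairs had a smaller SD of the log2 ratio. The same share was 29.4% for Novel07429 and Novel07430, and 30.8% for Novel02449 and Novel02450.

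The comparison of diets addresses how a lower energy supply alters testis expression. No member differed between restricted and maintenance testes at an adjusted p of 0.05 in the edgeR quasi-likelihood test of all 22323 genes, and the lowest adjusted p of a member was 0.99998. Over all genes the test called 0 (0%). DESeq2 on the same genes called 9, none of them a member, and limma-voom called 0. At an unadjusted p below 0.05 there were 5 members (3.33%), 0 higher and 5 lower in restricted testes, beside 540 of all genes tested (2.42%), of which 104 (0.466%) were higher and 436 (1.95%) lower. With all 6 libraries the members' share was near the background. With library size as the only scaling, 5 members again had such a p, beside 2.06% of all genes. Of these members, 2 were higher (Novel00739 and Novel07249) and 3 lower. The count rested on single libraries. Leaving out maintenance replicate 1 gave 33 of 150 members (13 higher, 20 lower), beside 10.7% of all genes. Leaving out restricted replicate 1 gave 23 of 150 (4 higher, 19 lower), beside 5.92% of all genes. In both of these fits the members' share was above that of all genes, which was not tested. Members had a median level of 109 CPM against 10.9 CPM for all genes. The share of Ensembl genes in the members' CPM range is not given for these fits. Without maintenance replicate 1, the remaining maintenance libraries came from the same set of 3 in the split between libraries described above. Without restricted replicate 1, the remaining restricted libraries came from the opposite set. Fits that dropped maintenance replicate 2 or 3 gave 2 and 1 members (2.16 and 1.26% of all genes). Those that dropped restricted replicate 2 or 3 gave 2 and 0 (1.32 and 1.005% of all genes).

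The members' median log2 change, restricted against maintenance, was -0.06, beside -0.05 over all genes tested, and 64 of 150 (42.7%) had a higher estimate in restricted testes, beside 44.1% of all genes. The first 150 by mean FPKM, of which 75 are members, had a median of -0.23. When only library size was used for scaling, these medians were 0.07 and 0.08, so signs of small changes depended on the scaling. Estimates of members ranged from -1.52 to 0.91, and 2 of them passed 2-fold in size, beside 4.78% of all genes. Of the 3835 Ensembl genes in the members' CPM range, 15 passed it. The members' median standard error was 0.32. The 95% interval of 77 members (51.3%) held no change as large as 2-fold, beside 32.6% of all genes. All genes tested had a much lower median level, 10.9 CPM against 109 CPM for members. For the Ensembl genes in the members' CPM range the share was 69.8%. The intervals of the remaining members did reach 2-fold.

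By CPM, the 3 restricted libraries lay wholly above the 3 maintenance libraries in 3 members and wholly below in 4, or 7 of 150 (4.67%), beside 7.19% of all genes tested (4.53% above and 2.67% below). After TMM scaling these counts were 0 above and 4 below, beside 6.33% of all genes (2.32% above and 4.01% below). These small counts were near the background and were not tested against it. The 3 above by CPM alone were Novel07811, Novel03060 and Novel07945, with fitted log2 changes of 0.24, 0.23 and 0.05. Novel07811, with 208, 148.6 and 148 CPM against 217, 221 and 214 CPM, is named after its values were seen.

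The 2 lower members with the smallest p-values were Novel04109 and Novel06035. Novel04109 (2512 bases) had 91.3, 97.5 and 136 CPM in maintenance and 78.4, 76.5 and 59.7 CPM in restricted libraries, or 108 ± 24.0 and 71.5 ± 10.3 CPM (SD, n = 3). Every restricted library lay below every maintenance library. Its log2 change was -0.72 with a standard error of 0.24 (edgeR adjusted p = 0.99998, unadjusted p = 0.0195). Without maintenance replicate 3 it was -0.47 (edgeR unadjusted p = 0.12), and without restricted replicate 3 it was -0.56 (edgeR unadjusted p = 0.0699). Novel06035 (3471 bases) had 128, 143 and 134 CPM against 107, 96.1 and 60.8 CPM, or 135 ± 7.46 and 87.9 ± 24.0 CPM (SD, n = 3). The diets did not overlap, and restricted replicate 3 was lowest in both genes. The log2 change was -0.74 with a standard error of 0.28 (edgeR adjusted p = 0.99998, unadjusted p = 0.0298). Its unadjusted p was above 0.05 in 4 of the 6 fits that left out 1 library, where the change ran from -0.88 to -0.50.

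The remaining 3 members at an unadjusted p below 0.05, named after their values were seen, were Novel04256, Novel01516 and Novel02723. Novel04256 (802 bases) had 164, 204 and 246 CPM against 154, 159 and 134 CPM. Novel01516 (1302 bases) had 98.2, 106 and 110.5 CPM against 85.7, 64.6 and 39.7 CPM. In both the diets did not overlap. Novel02723 (819 bases) had 59.5, 81.6 and 92.1 CPM against 66.2, 51.7 and 49.5 CPM, with overlap. Their log2 changes were -0.59, -0.84 and -0.61, and all 5 members of this group had their lowest level in restricted replicate 3.

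The 2 higher members with the smallest p-values were Novel00739, given above, and Novel07249. Novel00739 had 235 ± 54.0 CPM at maintenance and 455 ± 268 CPM at 55% energy (SD, n = 3), and its log2 change was 0.78 with a standard error of 0.39 (edgeR adjusted p = 0.99998). Without restricted replicate 3 the change was 0.27. Novel07249 (2825 bases, rank 10) had 308, 253 and 267 CPM against 301, 524 and 400.1 CPM, or 276 ± 28.8 and 408 ± 112 CPM (SD, n = 3). Restricted replicate 1 lay within the maintenance range. The log2 change was 0.43 with a standard error of 0.24 (edgeR adjusted p = 0.99998), and it was 0.20 without restricted replicate 2 and 0.65 without restricted replicate 1.

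Among the 6 most abundant members, Novel00138 and Novel01006 had the estimates farthest from 0, at -0.61 with a standard error of 0.34 and -0.55 with a standard error of 0.35. Novel00138 was at -0.37 without maintenance replicate 2 and -0.38 without restricted replicate 3, and Novel01006 at -0.34 and -0.32 in the same fits. The log2 changes of Novel04219, Novel02179, Novel07221 and Novel02847 were 0.02, -0.11, 0.24 and -0.04, each smaller than its standard error, which lay between 0.20 and 0.29. Novel07221 ran from 0.07 without maintenance replicate 1 to 0.54 without maintenance replicate 2, with 0.42 without restricted replicate 2 and 0.11 without restricted replicate 3. Novel02179 and Novel02847 had a slightly higher mean CPM in restricted testes, and scaling by library size only gave estimates of 0.031 and 0.10. The 2 members past 2-fold were Novel04860 and Novel01488, at -1.52 with a standard error of 0.82 and -1.03 with a standard error of 0.62. The latter, named after its values were seen, had 64.1, 115 and 99.8 CPM in maintenance and 97.6, 26.8 and 21.3 CPM in restricted libraries.

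**Figure D5:**
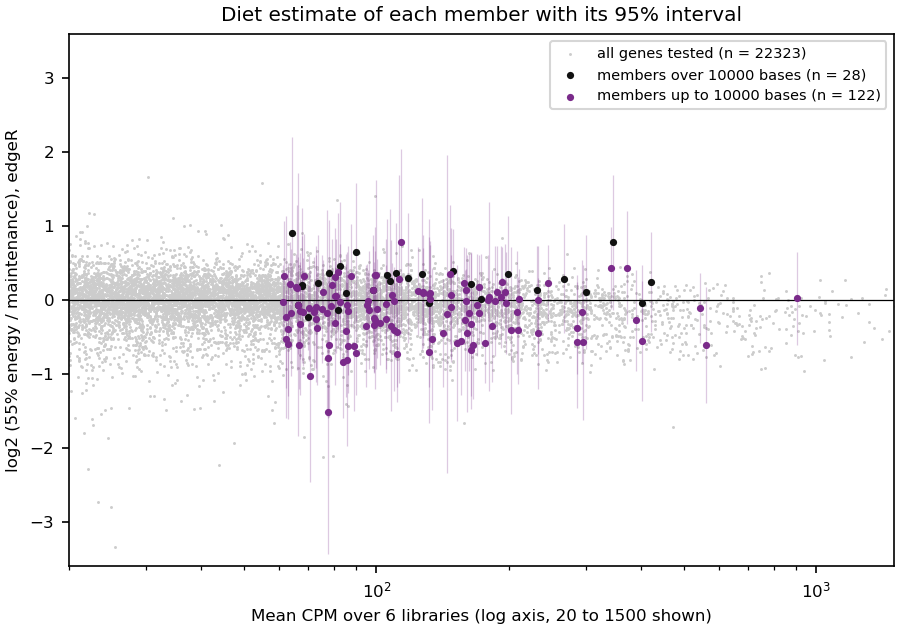
Estimated log2 change, 55% energy against maintenance (y), with its 95% interval, against mean CPM (x, log axis) for the 150 members, over all genes tested in grey. The members' estimates run from -1.52 to 0.91 with a median of -0.06. Those over 10000 bases (black) have 23 of 28 estimates above 0, and 16 of 28 without restricted replicate 3. From 7338 to 47509 bases, 81.6% of members and 65.2% of Ensembl genes of the members' CPM range have an estimate above 0.

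The diet estimates were ordered by length. In the 4 length classes of the members (315 to 1396, 1442 to 3125, 3134 to 6981 and 7338 to 47509 bases, with 38, 37, 37 and 38 members) the median log2 changes were -0.27, -0.17, -0.11 and 0.23. The numbers of higher estimates were 7, 11, 15 and 31, or 18.4, 29.7, 40.5 and 81.6% of each class. Among Ensembl genes of the members' CPM range, within the same bounds of length, they made up 21.6, 33.0, 44.9 and 65.2%. Among the other unannotated genes they made up 31.6, 35.4, 46.6 and 50.2%. The 5 members at an unadjusted p below 0.05 in the edgeR test were spread as 3, 1, 1 and 0 over these classes. The share of all genes at such a p is not given by length class, so these small counts are not read as an effect of length. Within the same bounds of length the other unannotated genes had medians of -0.22, -0.15, -0.03 and 0.00, and the Ensembl genes of the members' CPM range had -0.16, -0.10, -0.03 and 0.08. The longest class of the members minus the shortest was 0.50 with all libraries. It was 0.20 without restricted replicate 3, 0.82 without restricted replicate 1 and between 0.43 and 0.52 without any other single library. For the 28 members over 10000 bases the median was 0.24 with 23 higher estimates, and without restricted replicate 3 it was 0.07 with 16 higher estimates. The difference between length classes was read after the values were seen and was not tested.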

How the data were processed

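The authors deposited raw read counts per gene and FPKM values for 6 testis libraries, 1 column each, with 0 columns left unused. Per the submitters' processing notes, TopHat2 and Oar_v3.1 were used. Which counter, strand setting and annotation were used, and how unannotated genes were assembled, is not given in the sources used here. Deposited counts divided by deposited FPKM values and column totals gave gene lengths within 1.38e-09 of a whole base.

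Genes passed edgeR's filter (minimum count 10, minimum total 15), which left 22323. Counts were scaled by TMM and tested with the edgeR 4.0.16 quasi-likelihood F test (R 4.3.3), Benjamini-Hochberg adjusted over all genes at 0.05. Standard errors came from the F statistic. Alternatives used library size alone, RLE, other filters, DESeq2 1.42.0, limma 3.58.1 (voom, log2(FPKM + 1) and log2(FPKM + 0.1), with a mean of 0.5 FPKM or more in at least 1 diet), other member lists, and each library left out.

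The members and lists were chosen with earlier results of these data known. Genes named by rule were the 6 highest by CPM, 3 highest by FPKM, 2 longest and 2 shortest, 3 with the largest and 3 with the smallest CV, the 2 smallest p-values per direction, 4 pairs of consecutive numbers, and the rows at the threshold. Cell type markers could not be looked up.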

Additional observations from a re-analysis of the deposited data

How the results depend on the processing

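No paired analysis was possible because the sample titles share no replicate number across the diets. No member passed an adjusted p of 0.05 in any fit run. Over all genes the edgeR count of 0 became 9 with DESeq2 (6 higher, 3 lower), 1 with limma on log2(FPKM + 0.1), and between 0 and 1 when single libraries were left out (1 without maintenance replicate 1). The 5 members at an unadjusted p below 0.05 became 2 and 0 with limma on log2(FPKM + 1) and log2(FPKM + 0.1), beside 2.51 and 2.89% of all genes. In the main edgeR fit the count was 3 in the first 100 members (3%) and 12 in the first 300 unannotated genes (4%), beside 2.42% of all genes. Without single libraries it was between 0 and 33, beside 1.005 to 10.7% of all genes. The 7 members with diets apart became 4 with TMM-scaled CPM. The members' median log2 change ran from -0.18 to 0.09 without single libraries, and the first 150 by mean FPKM had -0.23. The difference between the longest and shortest length class, with alternatives chosen after seeing the data, ran from 0.20 to 0.82. Sign changes were found for Novel04219 (between -0.12 and 0.20 without single libraries), Novel02179 (between -0.20 and 0.029, with 0.031 for library size only, 0.035 for log2(FPKM + 1) and 0.035 for log2(FPKM + 0.1)) and Novel02847 (between -0.18 and 0.091, with 0.10, 0.084 and 0.085 for these settings). The cause of these changes was not tested. Counting CVs at the members' mean levels were at most 0.0324, but single values rested on as few as 99 reads.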
